A study of Homo sapiens with 33 samples.

Results

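Between day 8 and day 12 of FOXL2-induced gonadal differentiation, 17 of 31 neuronal genes, 7 of 16 contractile genes, 7 of 21 genes of the coelomic epithelium and 6 of 29 collagens were called higher and none lower. With 1 library left out, the numbers higher ranged from 8 to 20, 4 to 7, 1 to 7 and 2 to 10. In the same test 8 of 15 endothelial and 3 of 10 pluripotency genes were called lower and none higher. Of all genes tested, 4.02% were called higher and 1.15% lower. In uninduced cells 23 of 30 neuronal, 7 of 16 contractile, 9 of 21 coelomic and 14 of 28 collagen genes were called higher. There 6 of 15 endothelial and 7 of 10 pluripotency genes were called lower. Also called there were 1 contractile gene and 1 collagen lower and 1 pluripotency gene higher. Of all genes tested in uninduced cells, 13.9% were called higher and 10.7% lower. The comparison used 6 of the 33 libraries, the 3 day 12 IND libraries against the 3 day 8 IND libraries, chosen by their day and treatment labels, across all 58735 genes of the count table. Of these genes, 35288 had a count in the 6 libraries and 19678 had enough counts to be tested. All cells were H9-DDdCas9VP192-FOXL2 clone 24, 1 clone derived from H9, a line of human embryonic stem cells, in which a conditionally stable, catalytically dead Cas9 fused to VP192 activates FOXL2 from its own locus. In the induced cells, IND, doxycycline and trimethoprim were present from day 4 onwards, and the uninduced cells, CTRL, carried the same activator and went through the same differentiation without either compound. Both groups compared here therefore carried the induction, and time in the differentiation medium and time since induction cannot be told apart within IND. The 3 libraries of a group were technical replicates of 1 biological replicate, so a p-value measures the spread between technical replicates of 1 experiment. No group received the compounds without the activator.

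The gonad forms from the coelomic epithelium, the sheet of mesothelial cells that covers the intermediate mesoderm. Its cells express GATA4, WT1 and LHX9, thicken into a bipotential ridge, and give rise to supporting cells that become granulosa cells in an ovary or Sertoli cells in a testis. FOXL2 is a forkhead transcription factor and the best known marker of the granulosa lineage, where RSPO1 and WNT4 act through beta-catenin and FST restrains activin. Differentiations of stem cells in a dish also yield neighbours of the same stage, such as neurons, neural crest, endothelium and smooth muscle. In bulk RNA-seq a change in a gene can come from the number of cells that express it or from the RNA per cell, and these cannot be told apart here.

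In the edgeR quasi-likelihood test, 1019 of the 19678 genes (5.18%) differed between day 8 and day 12 at an adjusted p under 0.05. Of these, 792 genes (4.02%) were higher on day 12 and 227 (1.15%) lower. The 3 day 12 values lay entirely above or entirely below the 3 day 8 values for each of the 1019 genes, as they did for 27.9% of all genes tested. The median change was 1.35 on the log2 scale among the genes that rose and 1.12 in size among those that fell, and 577 and 133 genes changed by at least 1. Of 15359 protein-coding genes tested, 742 (4.83%) rose and 207 (1.35%) fell. The libraries held between 29348640 and 47805809 counts. Day 12 IND replicate 1 stood apart from its group: ribosomal protein genes took 10.5% of its counts against 6.30% to 7.23% in the other 5 libraries, and the chi-squared per gene was 123 and 95.1 against the other day 12 libraries but 17.7 between those. Day 8 IND replicate 3 stood apart to a lesser degree, with 43.1 and 29.0 against the other day 8 libraries and 10.5 between those. The number of genes called was 390 (1.9%), 357 (1.73%) and 606 (3.02%) without day 8 replicate 1, 2 or 3, and 826 (4.12%) and 566 (2.75%) without day 12 replicate 2 or 3. Without day 12 replicate 1, 1547 genes (7.71%) were called, 1056 higher (5.26%) and 491 lower (2.45%), and among these were 706 of the 792 and 200 of the 227. None of the 1019 genes changed its direction in any alternative fit. As their day 8 and day 12 values did not overlap, this was nearly fixed beforehand and is no check of the calls. The libraries did not keep the strand of the RNA, and ACTA2, ASPN, C1S, DHH, FZD4, GATA2, GPR183, HAND2, HOXA4, IGFBP7, INHA, KRT18, KRT8, MCM2, MYH11, NPHS1, OGN, PHOX2A, POU5F1, PRCD, RDH10, SFRP4, SOX10, STAR, TAGLN, TGFB3, TMOD1, TSPAN8, WNT2B and WT1 overlap a gene on the other strand with over 10% of their counts, so their own counts are uncertain. Among them, INHA, NPHS1 and PHOX2A averaged 73.8, 36.5 and 62.3 counts, against 13688, 5330 and 8403 of the other gene. The other gene also had the higher counts in ASPN, FZD4, GPR183, HOXA4, IGFBP7, KRT18, MYH11 and OGN. The same held for POU5F1, PRCD, RDH10, STAR, TGFB3, TMOD1 and TSPAN8. Fits with 1 library left out do not resolve this.

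FOXL2, the targeted gene, was present at 246, 257 and 320.4 CPM on day 8 and 242, 211 and 219 CPM on day 12. CPM are read counts scaled to the size of each library, and 3 values stand for replicates 1, 2 and 3 throughout. The day 12 values lay just below the day 8 values, with a log2 fold change of -0.29 (edgeR adjusted p = 0.284), which did not pass the test. In the CTRL libraries of days 8 and 12 the group means were 0.0573 and 0.116 CPM, so the transcript of the targeted gene followed the labels of induction on both days. FOXL2NB and LINC01391, which flank FOXL2 on chromosome 3, also did not pass, with log2 fold changes of -0.35 (edgeR adjusted p = 0.441) and -0.49 (edgeR adjusted p = 0.175).

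Of the coelomic epithelium and mesothelium list, 7 of the 21 tested members of 23 listed were higher and 0 lower on day 12 (33.3% and 0%, against 4.02% and 1.15% of all genes tested; median log2 fold change 0.58, against 0.01). With 1 library left out at a time, the number called higher ranged from 1 without day 8 replicate 2 to 7 without day 8 replicate 3 or day 12 replicate 1. UPK3B, a uroplakin that marks mesothelium, was measured at 1.16, 1.06 and 2.77 CPM on day 8 and 29.9, 24.1 and 27.3 CPM on day 12. The day 12 values were all at least several times the highest day 8 value, and the log2 fold change was 4.01 ± 0.35 (SE; edgeR adjusted p = 0.000512). WT1, a zinc finger factor needed for the gonadal ridge and kidney, was at 9.17, 18.4 and 20.4 CPM on day 8 and 39.2, 39.8 and 45.3 CPM on day 12, with a log2 fold change of 1.37 ± 0.26 (SE; edgeR adjusted p = 0.0176). The 3 day 8 libraries of WT1 all lay below the 3 day 12 libraries. LHX9, a LIM homeobox factor of the ridge, was not detected in day 8 replicates 1 and 2, was at 0.142 CPM in the third, and reached 0.737, 2.25 and 1.35 CPM on day 12 (edgeR adjusted p = 0.0169). Its fitted fold change depends on the count added to zeros and is not given. The T-box factor TBX18 (1.20), the membrane linker EZR (0.76), LRRN4 (0.86) and GATA4 (0.58) completed the group, with log2 fold changes between 0.58 and 1.20. GATA4 was already abundant, at 131, 161 and 137 CPM on day 8 and 227, 195 and 218 CPM on day 12. Keratins of the same epithelium did not pass the test: KRT8, KRT18 and KRT19 had log2 fold changes of 0.22, 0.41 and -0.18. Of the 21 tested members, 15 had a positive log2 fold change, and the lowest, -2.08, was not called. With a single library left out, edgeR lost the calls of TBX18 and EZR without day 8 replicate 1 or 2 or day 12 replicate 3, and WT1 without day 8 replicate 2 or day 12 replicate 1 or 3 (adjusted p of at most 0.185 in these fits). Also lost were LHX9 without day 8 replicate 1 or 2, and LRRN4 without day 8 replicate 1 or 2 or day 12 replicate 2 or 3. Also lost was GATA4 without day 8 replicate 1, 2 or 3 or day 12 replicate 3. UPK3B held in each such fit.

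**Figure D1:**
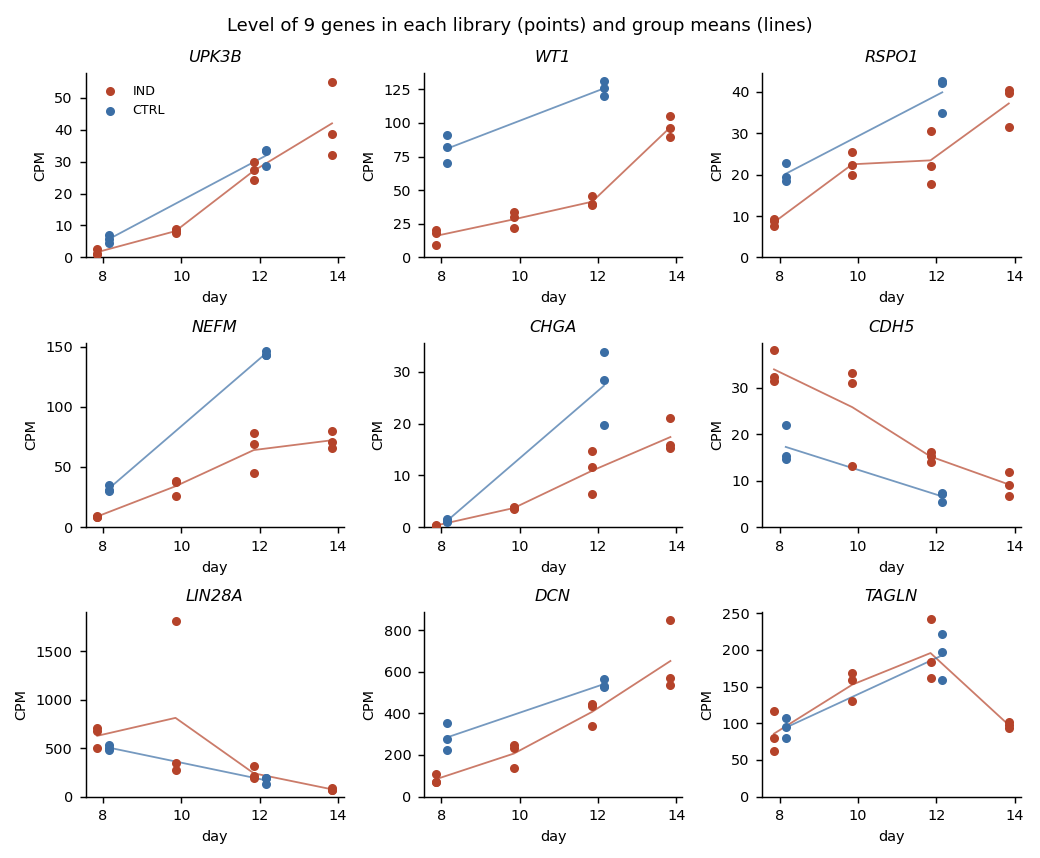
CPM (vertical axes, linear, from 0) of 9 genes against the day of differentiation; each point is 1 library, red for IND on days 8, 10, 12 and 14 and blue for CTRL on days 8 and 12, and lines join group means. From day 8 to day 12 the IND values of UPK3B went from between 1.06 and 2.77 to between 24.1 and 29.9 CPM; the high LIN28A point on day 10 is the low-complexity IND replicate 2.

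Among the transcription factors of the bipotential gonad, 5 of the 13 tested members were higher and 1 lower on day 12 (38.5% and 7.69%, against 4.02% and 1.15% of all genes tested), and the number higher ranged from 1 without day 8 replicate 1 or 2 to 5 without day 12 replicate 2. Besides WT1, LHX9 and GATA4, these were LHX2 with a log2 fold change of 1.80 (edgeR adjusted p = 0.0176) and TCF21 with 0.97 (edgeR adjusted p = 0.029). CBX2, a Polycomb subunit required for gonadal growth, went the other way and fell by 0.52 (edgeR adjusted p = 0.0405). NR5A1, the nuclear receptor that switches on steroid genes, stayed close to the floor of 3 counts, at 0.282, 0.329 and 0.122 CPM on day 8 and 0.38, 0.432 and 0.438 CPM on day 12. Neither it nor any of the 9 tested members of 15 listed on the steroid synthesis list passed, among them STAR, the cholesterol carrier of mitochondria, with 0.54 (edgeR adjusted p = 0.293) in log2 fold change. GATA2, a marker of the transitional stage, had a log2 fold change of -0.14 (edgeR adjusted p = 0.783). None of the 4 markers of early supporting gonadal cells passed with all libraries. LGR5, a receptor for R-spondins, had 11.8, 6.93 and 4.50 CPM on day 8 and 1.99, 4.00 and 2.39 CPM on day 12 (log2 fold change -1.46, edgeR adjusted p = 0.0629), and TSPAN8, OSR1 and TAC1 had log2 fold changes of 0.07, -0.12 and -0.08 (edgeR adjusted p between 0.821 and 0.971). LGR5 was called lower without day 8 replicate 3 or day 12 replicate 2, and its log2 fold change over the 6 fits with 1 library left out lay between -1.82 and -1.03. Calls lost on leaving out 1 library were those of LHX2 without day 8 replicate 1 or day 12 replicate 1, and TCF21 without day 8 replicate 1 or 2 or day 12 replicate 3 (adjusted p of at most 0.2 in these fits). Also lost was CBX2 without day 8 replicate 1, 2 or 3 or day 12 replicate 2 or 3.

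The granulosa list moved in both directions: 6 of the 18 tested members of 19 listed were higher and 1 lower on day 12 (33.3% and 5.56%, against 4.02% and 1.15% of all genes tested; median log2 fold change -0.02), and the number higher ranged from 2 without day 8 replicate 1 to 6 without day 12 replicate 1 or 2. The largest rise was in INHBA, which encodes the activin A subunit, at 0.822, 0.987 and 0.305 CPM on day 8 and 3.75, 6.89 and 6.17 CPM on day 12 (log2 fold change 3.01 ± 0.42 SE, edgeR adjusted p = 0.00453). INHA, the inhibin subunit that pairs with it, rose by 1.55 (edgeR adjusted p = 0.0147), and FST, the secreted protein that binds activin, rose by 0.86 (edgeR adjusted p = 0.015) from a much higher start of 43.5, 49.2 and 37.7 CPM. RSPO1 went from 8.73, 9.18 and 7.57 to 30.6, 17.7 and 22.0 CPM (log2 fold change 1.47 ± 0.21 SE, edgeR adjusted p = 0.0055), WNT4 rose by 1.38 (edgeR adjusted p = 0.026), and RUNX1 by 1.03 (edgeR adjusted p = 0.049). FSHR, the receptor for follicle stimulating hormone and a mature granulosa gene, was the member that fell, from 5.75, 6.68 and 4.86 to 1.45, 2.51 and 2.19 CPM (log2 fold change -1.49, edgeR adjusted p = 0.0129). Of the 11 tested members of 12 listed on the testis pathway 2 rose and 0 fell (18.2% and 0%, against 4.02% and 1.15% of all genes tested). The number higher ranged from 0 without day 8 replicate 1, 2 or 3 to 3 without day 12 replicate 1. SOX8 and SOX10 rose by 0.79 (edgeR adjusted p = 0.0172) and 0.72 (edgeR adjusted p = 0.0228), while SOX9, NR0B1 and DHH had log2 fold changes of 0.09, 0.34 and -0.51 and did not pass. WNT6, CYP19A1 and CYP17A1 had too few counts to be tested, with at most 13, 4 and 4 counts in any of the 6 libraries. The edgeR test no longer passed for INHA and FSHR without day 8 replicate 1 or 2, and WNT4 and SOX10 without day 8 replicate 1, 2 or 3 or day 12 replicate 3 (adjusted p of at most 0.2 in these fits). Also lost were FST without day 8 replicate 1 or 3, and RUNX1 without day 8 replicate 1, 2 or 3 or day 12 replicate 2 or 3. Also lost was SOX8 without day 8 replicate 1, 2 or 3. The call of INHBA and RSPO1 did not depend on 1 library.

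Of the WNT pathway, 15 of the 52 tested members of 56 listed were higher and 2 lower on day 12 (28.8% and 3.85%, against 4.02% and 1.15% of all genes tested; median log2 fold change 0.06). The number higher ranged from 8 without day 8 replicate 2 to 15 without day 12 replicate 1. Among the ligands, WNT2B had 3.29, 4.17 and 6.51 CPM on day 8 and 33.4, 31.0 and 50.6 CPM on day 12 (log2 fold change 3.03 ± 0.29 SE, edgeR adjusted p = 0.000744). WNT7A rose by 3.83 (edgeR adjusted p = 0.00405) from under 1 CPM, and WNT9A by 1.22 (edgeR adjusted p = 0.0234). Of the R-spondins, which raise the number of WNT receptors on the cell surface, RSPO2 rose by 2.73 (edgeR adjusted p = 0.000477) and RSPO3 by 0.93 (edgeR adjusted p = 0.00589) beside RSPO1. RSPO2 went from 4.90, 3.97 and 2.83 to 23.5, 25.1 and 28.9 CPM. Several secreted antagonists of the list rose: SFRP4 was at 1.75, 1.39 and 1.69 CPM on day 8 and 15.9, 13.1 and 17.5 CPM on day 12 (log2 fold change 3.27 ± 0.21 SE, edgeR adjusted p = 0.000477), DKK2 and WIF1 rose by 3.05 and 2.34, and the more abundant SFRP1, FRZB and DKK3 by 1.14, 0.90 and 0.58. SOST, a secreted antagonist that is not on the list, fell, with a log2 fold change of -2.39 (edgeR adjusted p = 0.0151). The intracellular inhibitor NKD2 rose by 0.73. Receptors split, with FZD1 up by 1.19 (edgeR adjusted p = 0.00566) and FZD4 down, with a log2 fold change of -0.75 (edgeR adjusted p = 0.0435). SP5, a direct target of beta-catenin, went from 27.9, 27.4 and 20.9 to 13.5, 12.6 and 10.2 CPM (log2 fold change -1.07 ± 0.18 SE, edgeR adjusted p = 0.00967) and thus moved against the 4 WNT ligands and 3 R-spondins that were called. Leaving out a library ended the calls of WNT9A, DKK3, NKD2 and FZD4 without day 8 replicate 1, 2 or 3 or day 12 replicate 2 or 3, and SFRP1, SP5 and SOST without day 8 replicate 1 or 2 (adjusted p of at most 0.213 in these fits). Also lost were RSPO3 without day 8 replicate 2, and FRZB without day 8 replicate 1 or 2 or day 12 replicate 3. WNT2B, WNT7A, RSPO2, SFRP4, DKK2, WIF1 and FZD1 stayed called in all 6 fits.

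**Figure D2:**
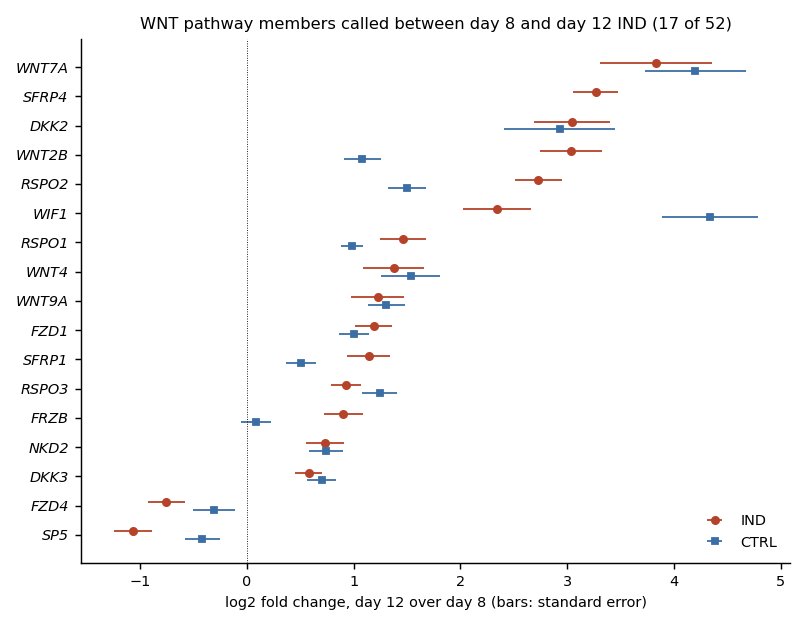
Log2 fold change from day 8 to day 12 (horizontal axis; bars are the standard error) of the 17 WNT pathway members called in IND, red circles for IND and blue squares for CTRL. All but FZD4 and SP5 lie to the right of 0 in IND, and WNT2B is the member whose IND and CTRL steps differed in the test; SFRP4 has no CTRL value since it had too few counts there.

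Of the TGF-beta family, 7 of the 48 tested members of 49 listed were higher and 0 lower on day 12 (14.6% and 0%, against 4.02% and 1.15% of all genes tested; median log2 fold change 0.17). The number higher ranged from 4 without day 8 replicate 1 to 10 without day 12 replicate 1. GDF6, a BMP ligand, was at 16.5, 15.6 and 14.2 CPM on day 8 and 55.2, 71.7 and 84.0 CPM on day 12. The change in GDF6 was 2.19 ± 0.18 on the log2 scale (SE; edgeR adjusted p = 0.000477). TGFBI, an extracellular protein induced by TGF-beta, went from 103, 132 and 159 to 582, 530.1 and 489 CPM. The change in TGFBI was 2.02 ± 0.17 on the log2 scale (SE; edgeR adjusted p = 0.000512). TGFB3 rose by 1.51 (edgeR adjusted p = 0.0048) and GDF15 by 1.57 (edgeR adjusted p = 0.012). In the retinoic acid list (23 tested), the receptor RXRG and the chemoattractant RARRES2 rose by 3.42 (edgeR adjusted p = 0.000477) and 2.37 (edgeR adjusted p = 0.00225), and the retinal-producing enzyme RDH10 fell, with a log2 fold change of -0.77 (edgeR adjusted p = 0.0391). IHH was the 1 called member of 14 tested on the Hedgehog list, at 66.2, 44.9 and 27.1 CPM on day 8 and 21.4, 11.8 and 16.9 CPM on day 12 (log2 fold change -1.46, edgeR adjusted p = 0.0318); its receptor PTCH1 had a log2 fold change of -0.79 (edgeR adjusted p = 0.104). Within the IGF list (20 tested) the called members all rose, the binding proteins IGFBP5 and IGFBP7 by 0.89 (edgeR adjusted p = 0.0247) and 1.84 (edgeR adjusted p = 0.00439), and STC1 by 0.95 (edgeR adjusted p = 0.0401). On the Notch list (20 tested) HEY1, DLL3 and HES4 rose by 0.92, 1.19 and 0.93. Called higher and lower were 8.7% and 4.35% of the retinoic acid list and 0% and 7.14% of the Hedgehog list. For both the IGF and the Notch list the shares were 15% and 0%. Of all genes tested, 4.02% and 1.15% were called. With a single library left out, edgeR lost the calls of RDH10 and STC1 without day 8 replicate 1, 2 or 3 or day 12 replicate 2 or 3, and IGFBP5 and DLL3 without day 8 replicate 1, 2 or 3 or day 12 replicate 3 (adjusted p of at most 0.187 in these fits). Also lost were GDF15 without day 8 replicate 1 or 3 or day 12 replicate 1, and IHH without day 8 replicate 1 or 2 or day 12 replicate 1, 2 or 3. Also lost were HEY1 without day 8 replicate 1 or 2, and HES4 without day 8 replicate 1, 2 or 3 or day 12 replicate 1 or 2. GDF6, TGFBI, TGFB3, RXRG, RARRES2 and IGFBP7 held in each such fit.

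Of the collagens, 6 of the 29 tested members were higher and 0 lower on day 12 (20.7% and 0%, against 4.02% and 1.15% of all genes tested; median log2 fold change 0.36). Of the leucine-rich proteoglycans and matricellular proteins, 8 of the 22 tested members of 25 listed were higher and 1 lower on day 12 (36.4% and 4.55%; median log2 fold change 0.26). The number of collagens called higher ranged from 2 without day 8 replicate 1 or 2 to 10 without day 12 replicate 1, and that of the proteoglycan list ranged from 2 without day 8 replicate 2 to 8 without day 12 replicate 1. DCN, the collagen-binding proteoglycan decorin, was at 67.7, 71.1 and 109 CPM on day 8 and 443, 341 and 437 CPM on day 12. The change in DCN was 2.30 ± 0.21 on the log2 scale (SE; edgeR adjusted p = 0.000627). LUM, a related proteoglycan, rose by 0.85 (edgeR adjusted p = 0.00972) from 112, 121 and 153 CPM, and SPARC by 0.94 (edgeR adjusted p = 0.0148). OGN, of the same family, had no count in day 8 replicate 1 and was at 0.202 and 0.265 CPM in the other two, against 2.99, 1.23 and 5.06 CPM on day 12 (edgeR adjusted p = 0.0141). ASPN had 1 count in each day 8 library against 0.335, 0.324 and 0.708 CPM on day 12, at least 6.39-fold higher, taking 3 counts per library as the day 8 floor. COL8A2, a short-chain collagen, had 0.95, 1.54 and 1.95 CPM on day 8 and 22.9, 16.2 and 20.3 CPM on day 12 (log2 fold change 3.73 ± 0.28 SE, edgeR adjusted p = 0.000477). COL3A1, the fibrillar collagen of soft tissues, was at 6105, 8424 and 9067 CPM on day 8 and 12829, 12682 and 16830.0 CPM on day 12 and only just passed the test. The change in COL3A1 was 0.84 ± 0.21 on the log2 scale (SE; edgeR adjusted p = 0.0495). COL1A1 and COL1A2 had log2 fold changes of 0.44 and 0.48 and did not. The exception was TNC, tenascin C, which fell from 424, 468 and 369 to 161, 248 and 227 CPM (log2 fold change -0.99 ± 0.18 SE, edgeR adjusted p = 0.0144). Calls lost on leaving out 1 library were those of LUM and TNC without day 8 replicate 1 or 2, and SPARC without day 8 replicate 1 or 2 or day 12 replicate 3 (adjusted p of at most 0.204 in these fits). Also lost were OGN without day 8 replicate 2, and ASPN without day 8 replicate 1, 2 or 3 or day 12 replicate 3. Also lost was COL3A1 without day 8 replicate 1, 2 or 3 or day 12 replicate 2 or 3. DCN and COL8A2 passed whichever library was left out.

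Of the contractile genes, 7 of the 16 tested members were higher and 0 lower on day 12 (43.8% and 0%, against 4.02% and 1.15% of all genes tested; median log2 fold change 0.76). The number higher ranged from 4 without day 8 replicate 2 or 3 to 7 without day 12 replicate 1. The summed level of the list lay between 2161 and 2365 CPM on day 8 and between 2810.3 and 3278 CPM on day 12. MYOCD, the coactivator that switches on smooth muscle genes, was at 1.44, 1.04 and 1.12 CPM on day 8 and 2.32, 5.70 and 4.32 CPM on day 12. The change in MYOCD was 1.78 ± 0.35 on the log2 scale (SE; edgeR adjusted p = 0.0208). ACTG2, gamma smooth muscle actin, went from 16.7, 12.6 and 9.58 to 54.5, 48.7 and 42.4 CPM (log2 fold change 1.91 ± 0.21 SE, edgeR adjusted p = 0.00154), and the filament protein DES from 7.88, 13.8 and 13.4 to 62.8, 45.9 and 31.6 CPM (log2 fold change 2.00 ± 0.28 SE, edgeR adjusted p = 0.0048). CNN1, TAGLN, MYL9 and SYNPO2 rose by 1.36, 1.19, 0.94 and 2.06. ACTA2 and MYH11, which define mature smooth muscle, had log2 fold changes of 0.35 (edgeR adjusted p = 0.176) and 0.58 (edgeR adjusted p = 0.304). Of the 17 tested members of 18 listed on the cardiac list, HAND2 and TNNI1 were called higher, by 1.09 (edgeR adjusted p = 0.0261) and 1.45 (edgeR adjusted p = 0.0235). They were 11.8% of those tested, against 4.02% of all genes tested, and 0% were called lower. The edgeR test no longer passed for MYOCD without day 8 replicate 1, 2 or 3 or day 12 replicate 2 or 3, and TAGLN without day 8 replicate 2 or 3 or day 12 replicate 1 (adjusted p of at most 0.139 in these fits). Also lost were MYL9 without day 8 replicate 1, 2 or 3, and HAND2 without day 8 replicate 1 or 2 or day 12 replicate 1 or 3. Also lost was TNNI1 without day 8 replicate 1 or 2 or day 12 replicate 1. The call of ACTG2, DES, CNN1 and SYNPO2 did not depend on 1 library.

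Of the neuronal genes, 17 of the 31 tested members of 34 listed were higher and 0 lower on day 12 (54.8% and 0%, against 4.02% and 1.15% of all genes tested; median log2 fold change 1.32). The number higher ranged from 8 without day 8 replicate 1 to 20 without day 12 replicate 1. The summed level lay between 188 and 222 CPM in the day 8 libraries and between 377 and 533 CPM in those of day 12. NEFM, the medium neurofilament subunit, was at 8.47, 8.30 and 9.54 CPM on day 8 and 78.3, 44.8 and 69.0 CPM on day 12. The change in NEFM was 2.87 ± 0.21 on the log2 scale (SE; edgeR adjusted p = 0.000477). NEFL and STMN2, a second neurofilament and a microtubule protein of growing axons, rose by 1.88 (edgeR adjusted p = 0.000559) and 3.42 (edgeR adjusted p = 0.00177). Regulators of neuronal birth were among them: INSM1 went from 0.642, 1.11 and 0.57 to 3.82, 2.90 and 3.74 CPM and NEUROG1 from 0.822, 0.354 and 1.26 to 3.86, 2.96 and 5.19 CPM. DCX, which marks young migrating neurons, was the most abundant called member, at 55.4, 62.5 and 61.1 CPM and then 104, 104 and 168 CPM. TUBB3 and MAP2, 2 pan-neuronal markers, had log2 fold changes of 1.11 (edgeR adjusted p = 0.152) and 0.27 (edgeR adjusted p = 0.549). In the neural crest and glia list, 6 of 16 were higher and 0 lower (37.5% and 0%), and the number higher ranged from 2 without day 8 replicate 1 or 2 or day 12 replicate 3 to 8 without day 12 replicate 2. PHOX2A, a homeobox factor of autonomic neurons, was at 0.257, 0.632 and 0.366 CPM on day 8 and 3.04, 2.12 and 2.93 CPM on day 12 (log2 fold change 2.68 ± 0.37 SE, edgeR adjusted p = 0.00444), and TFAP2A rose by 0.81 (edgeR adjusted p = 0.0322). TLX2, a homeobox factor of enteric and crest-derived neurons, rose by 3.99 (edgeR adjusted p = 0.00228). Leaving out a library ended the calls of NEUROG1 without day 8 replicate 1 or day 12 replicate 3, and DCX without day 8 replicate 1, 2 or 3 (adjusted p of at most 0.157 in these fits). Also lost was TFAP2A without day 8 replicate 1, 2 or 3 or day 12 replicate 2 or 3. NEFM, NEFL, STMN2, INSM1, PHOX2A and TLX2 stayed called in all 6 fits.

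CHGA, PCSK1 and SST were set side by side after their values and promoters were seen, and belong to no list. CHGA, chromogranin A of secretory granules, was at 0.282, 0.405 and 0.142 CPM on day 8 and 14.7, 6.31 and 11.6 CPM on day 12 (log2 fold change 5.32 ± 0.45 SE, edgeR adjusted p = 0.000492). PCSK1, the convertase that cuts prohormones in those granules, fell from 5.85, 3.42 and 1.24 to 0.67, 0.497 and 0.742 CPM. The change in PCSK1 was -2.46 ± 0.52 on the log2 scale (SE; edgeR adjusted p = 0.0278). SST, which encodes the peptide hormone somatostatin, fell from 40.7, 50.9 and 54.6 to 21.3, 12.5 and 15.7 CPM. The change in SST was -1.56 ± 0.21 on the log2 scale (SE; edgeR adjusted p = 0.00377). All 3 promoters hold the palindrome TGACGTCA, the cAMP response element, a motif added after the values were seen and found in 1.85% of all 35116 RefSeq windows of 250 bases before to 50 after a start. The 3 genes were picked with their promoters known, so their sharing it is no result about the called genes. The 100 bases before each start are shown 5′ to 3′ on the strand of the gene, with the element in capitals, because the same motif stands before 1 gene that rose and 2 that fell. With a single library left out, edgeR lost the calls of PCSK1 without day 8 replicate 1 or 2 or day 12 replicate 1, 2 or 3 (adjusted p of at most 0.0946 in these fits). CHGA and SST held in each such fit.
CHGA (GRCh38.p14, chr14:92923050-92923149, plus strand): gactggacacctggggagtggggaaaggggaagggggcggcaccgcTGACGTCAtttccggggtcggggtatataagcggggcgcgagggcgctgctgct
PCSK1 (GRCh38.p14, chr5:96433249-96433348, minus strand): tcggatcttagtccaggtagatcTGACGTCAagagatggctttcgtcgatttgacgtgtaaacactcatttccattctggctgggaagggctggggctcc
SST (GRCh38.p14, chr3:187670395-187670494, minus strand): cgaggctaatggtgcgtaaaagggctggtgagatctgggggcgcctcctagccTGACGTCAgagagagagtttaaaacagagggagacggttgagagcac

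The element begins 54, 77 and 47 bases before the start in CHGA, PCSK1 and SST. Over the genes called higher with a promoter in the table (568 of 792), 1.98% of windows held it, and over those called lower (155 of 227) 3.51%, against 2.52% over the windows of all genes tested. The forkhead motif GTAAACA was searched on both strands. It was in 26 of 909 windows of genes called higher (2.86%) and in 15 of 228 of genes called lower (6.58%). Over all genes tested the share was 2.69%. Other motifs, described below, were also more frequent in the windows of genes called lower than in all tested. The E2F site was in 14 of 228 (6.14%) against 3.03%, and the element TTTGAA in 16.2% against 10.9%. The core of the interferon-stimulated response element was less frequent, at 0.439% against 2.87%. Binding of FOXL2 to these promoters was not tested.

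Of the 15 tested members of the endothelial list, 8 (53.3%, against 1.15% of all genes tested) were lower and 0 higher on day 12 (median log2 fold change -0.84), and the summed level of the list went from between 367 and 417 CPM to between 220.0 and 285 CPM. The number lower ranged from 5 without day 8 replicate 1 or 2 or day 12 replicate 3 to 7 without day 8 replicate 3 or day 12 replicate 1 or 2. CDH5, the cadherin of endothelial junctions, was at 38.1, 31.5 and 32.4 CPM on day 8 and 16.2, 14.0 and 15.4 CPM on day 12. The change in CDH5 was -1.16 ± 0.14 on the log2 scale (SE; edgeR adjusted p = 0.00266). TEK, the angiopoietin receptor, had 20.2, 19.3 and 19.1 CPM on day 8 and 3.98, 7.45 and 7.05 CPM on day 12. The change in TEK was -1.67 ± 0.24 on the log2 scale (SE; edgeR adjusted p = 0.00456). Its relative TIE1, the VEGF receptor KDR and the ETS factor ERG had log2 fold changes of -1.12, -0.92 and -1.37, and those of VWF, FLT1 and ESAM, also called lower, were -1.71, -0.83 and -0.84. PECAM1 and SOX17 had log2 fold changes of -0.82 (edgeR adjusted p = 0.144) and -0.95 (edgeR adjusted p = 0.111) and did not pass. Of the 15 members, 4 had a positive log2 fold change, up to 0.63, and none of these passed. TAL1, a factor of blood and endothelial progenitors, fell from 6.16, 4.58 and 4.21 to 1.25, 1.69 and 0.978 CPM (log2 fold change -1.92 ± 0.28 SE, edgeR adjusted p = 0.00564), and CD34 by 0.80. RUNX1 and CD34 were the 2 tested members of 9 listed on the haematopoietic list. Markers of mature blood cells were at or near 0, with at most 11 counts of PTPRC, 4 of SPI1 and none of HBE1 in any of the 6 libraries. Calls lost on leaving out 1 library were those of ESAM and CD34 without day 8 replicate 1, 2 or 3 or day 12 replicate 2 or 3, and VWF without day 8 replicate 1 or 2 or day 12 replicate 1 or 3 (adjusted p of at most 0.192 in these fits). Also lost was FLT1 without day 8 replicate 1, 2 or 3 or day 12 replicate 1 or 3. CDH5, TEK, TIE1, KDR, ERG and TAL1 passed whichever library was left out.

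Of the pluripotency list, 3 of the 10 tested members of 12 listed were lower, LIN28A, SALL4 and DNMT3B, and 0 higher (30%, against 1.15% of all genes tested; median log2 fold change -0.82). The number lower ranged from 1 without day 8 replicate 1 or 2 to 6 without day 12 replicate 1. Although the labels give the cell type as embryonic stem cells, NANOG had at most 6 counts in any library and POU5F1, the defining stem cell factor, was at 1.31, 0.683 and 0.692 CPM on day 8 and 0.402, 0.216 and 0.0337 CPM on day 12. POU5F1 did not pass, with a log2 fold change of -1.95 (edgeR adjusted p = 0.121). LIN28A, an RNA-binding protein of stem cells and early embryos, went from 704, 673 and 501 to 193, 317 and 209 CPM. The change in LIN28A was -1.38 ± 0.21 on the log2 scale (SE; edgeR adjusted p = 0.00705). SALL4 and DNMT3B fell by 1.01 and 0.91. Of the 13 tested members of 16 listed on the intermediate mesoderm and nephron list, 2 rose and 3 fell (15.4% and 23.1%, against 4.02% and 1.15% of all genes tested). LHX1, SALL1 and MEOX1 had log2 fold changes of -2.06 (edgeR adjusted p = 0.0255), -1.31 (edgeR adjusted p = 0.00686) and -1.30 (edgeR adjusted p = 0.00441), whereas RET, the GDNF receptor, went from 0.616, 0.683 and 0.631 to 4.27, 4.30 and 4.52 CPM (log2 fold change 2.76 ± 0.24 SE, edgeR adjusted p = 0.000512) and the podocyte gene NPHS1 rose by 2.25 (edgeR adjusted p = 0.0147). Among the 22 tested members of 39 listed on the HOX list, 2 rose and 1 fell (9.09% and 4.55%, against 4.02% and 1.15% of all genes tested). HOXB1 at the front of its cluster went from 51.6, 52.7 and 89.4 to 35.9, 16.9 and 30.8 CPM (log2 fold change -1.21, edgeR adjusted p = 0.0497), and HOXA4 and HOXC4 rose by 1.38 (edgeR adjusted p = 0.0218) and 1.15 (edgeR adjusted p = 0.024). HOXC4 shares exons with its neighbours, so its counts are uncertain. The edgeR test no longer passed for SALL4, HOXA4 and HOXC4 without day 8 replicate 1 or 2 or day 12 replicate 3, and DNMT3B without day 8 replicate 1 or 2 (adjusted p of at most 0.15 in these fits). Also lost were LHX1 without day 8 replicate 1, 2 or 3 or day 12 replicate 1 or 2, and NPHS1 without day 8 replicate 2. Also lost was HOXB1 without day 8 replicate 1, 2 or 3 or day 12 replicate 1, 2 or 3. The call of LIN28A, SALL1, MEOX1 and RET did not depend on 1 library.

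**Figure D3:**
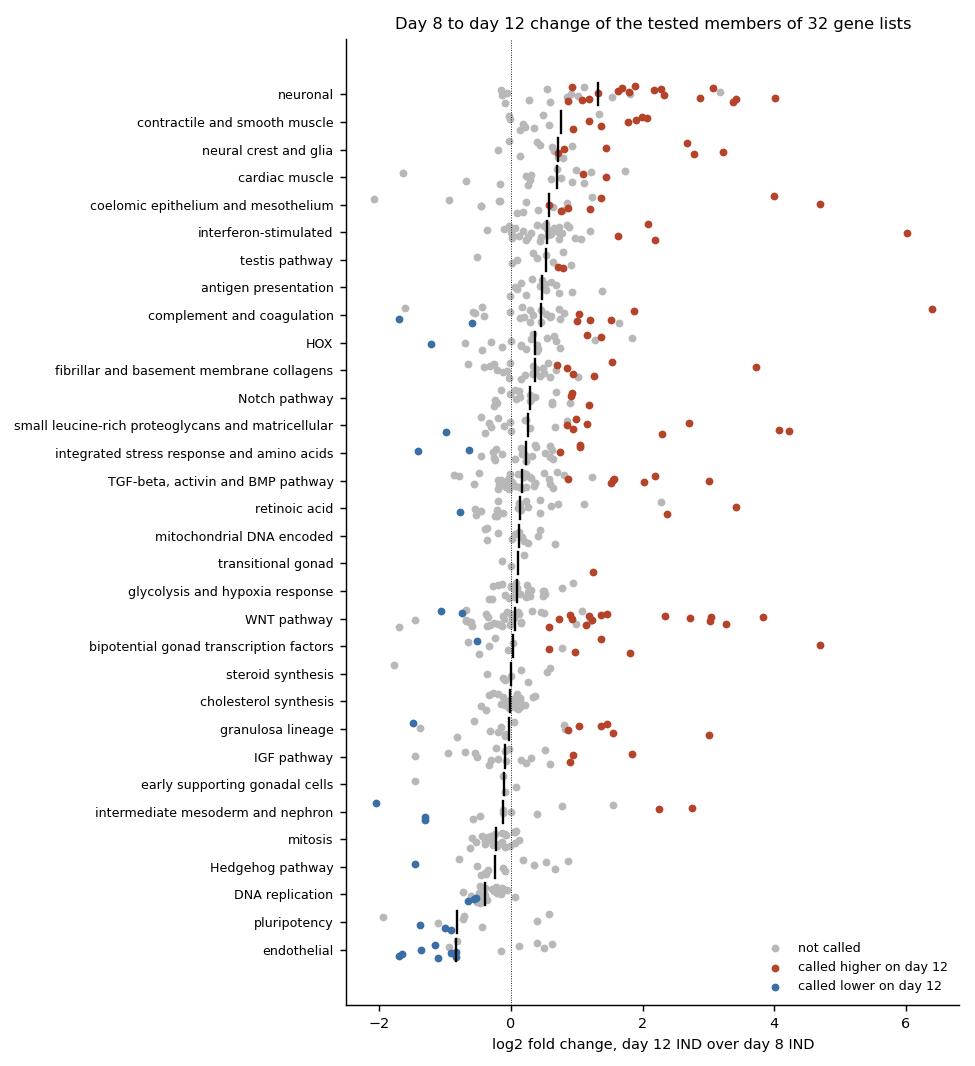
Log2 fold change from day 8 to day 12 IND (horizontal axis) of each tested member of 32 gene lists, 1 point a gene, red if called higher, blue if called lower, grey if not called; black bars are list medians. Lists are ordered by median, from the endothelial list at -0.84 to the neuronal list at 1.32.

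Of the 26 DNA replication genes, all tested, 3 fell (11.5%, against 1.15% of all genes tested) and none rose. Of the 26, 1 (3.85%) had a positive log2 fold change, against 50.9% of all genes tested (median log2 fold change -0.39), and the number called lower ranged from 0 without day 8 replicate 1, 2 or 3 to 11 without day 12 replicate 1. MCM2, a subunit of the replicative helicase, was at 172, 196 and 168 CPM on day 8 and 89.5, 129 and 122 CPM on day 12. The change in MCM2 was -0.65 ± 0.16 on the log2 scale (SE; edgeR adjusted p = 0.0466). CDC6, which loads that helicase, and GINS1 fell by 0.56 and 0.53. MCM3 and MCM6, 2 further helicase subunits, had log2 fold changes of -0.47 (edgeR adjusted p = 0.0576) and -0.50 (edgeR adjusted p = 0.0619). No gene of the 26 on the mitosis list passed, 5 (19.2%) had a positive log2 fold change (median log2 fold change -0.22), and the number called lower ranged from 0 without day 8 replicate 1, 2 or 3 or day 12 replicate 2 or 3 to 4 without day 12 replicate 1. E2F factors are known regulators of replication genes. The site TTTCCCGC or TTTGGCGC, on either strand, was in 55.6% of the 27 promoter windows of the list (21 of 26 genes matched) against 2.27% of all windows and 3.03% of those of genes tested. For the mitosis list and the element TTTGAA the shares were 69.6%, 15.2% and 10.9%. The promoters of MCM3 and MCM6 are shown up to the start, on the strand of the gene, with the E2F site in capitals, as examples of the list. Leaving out a library ended the calls of CDC6 and GINS1 without day 8 replicate 1, 2 or 3 or day 12 replicate 2 or 3, and MCM2 without day 8 replicate 1, 2 or 3 or day 12 replicate 3 (adjusted p of at most 0.216 in these fits).
MCM3 (GRCh38.p14, chr6:52284743-52284932, minus strand): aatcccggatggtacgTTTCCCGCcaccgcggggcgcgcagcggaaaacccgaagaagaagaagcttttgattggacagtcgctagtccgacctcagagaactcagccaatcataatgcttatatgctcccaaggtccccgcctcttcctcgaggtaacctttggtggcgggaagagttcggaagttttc
MCM6 (GRCh38.p14, chr2:135876444-135876613, minus strand): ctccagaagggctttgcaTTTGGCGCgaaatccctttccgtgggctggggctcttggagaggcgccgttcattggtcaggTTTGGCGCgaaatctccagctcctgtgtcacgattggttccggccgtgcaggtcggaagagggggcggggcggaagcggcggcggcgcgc

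Of the interferon-stimulated genes, 4 of the 36 tested members of 41 listed rose and none fell (11.1% and 0%, against 4.02% and 1.15% of all genes tested). Of the 36, 33 (91.7%) had a positive log2 fold change, against 50.9% of all genes tested (median log2 fold change 0.55). The number higher ranged from 1 without day 8 replicate 1 to 5 without day 12 replicate 1. IFI6, an antiviral protein of the endoplasmic reticulum and mitochondria, was at 11.9, 17.3 and 17.8 CPM on day 8 and 53.4, 63.2 and 29.0 CPM on day 12. The change in IFI6 was 1.63 ± 0.28 on the log2 scale (SE; edgeR adjusted p = 0.0108). IFI44L had at most 2 counts in each day 8 library and 1.01, 3.05 and 1.11 CPM on day 12, at least 24.1-fold higher with 3 counts per library taken as the day 8 floor. OAS1, which senses double-stranded RNA, and SAMD9 rose by 2.18 (edgeR adjusted p = 0.0446) and 2.09 (edgeR adjusted p = 0.049). GBP1, a GTPase induced by interferon gamma that is not on the list, was at 0.565, 0.354 and 0.773 CPM on day 8 and 8.73, 5.92 and 10.0 CPM on day 12. The change in GBP1 was 3.84 ± 0.34 on the log2 scale (SE; edgeR adjusted p = 0.00057). None of the 15 tested antigen presentation genes passed with all libraries, against 1 without day 8 replicate 3, and their median log2 fold change was 0.48. The core of the interferon-stimulated response element, GAAA followed by 2 bases of any kind and GAAA again on either strand, was in 62.8% of the 43 windows of the list (33 of 41 genes matched) against 3.57% of all windows. In the windows of genes called higher it was in 3.3%, against 2.87% over the windows of all genes tested. It is in capitals in the promoters of 3 of the 4 called genes, up to the start. With a single library left out, edgeR lost the calls of IFI6 without day 8 replicate 1 or day 12 replicate 1, and OAS1 without day 8 replicate 1, 2 or 3 or day 12 replicate 2 (adjusted p of at most 0.159 in these fits). Also lost was SAMD9 without day 8 replicate 1, 2 or 3 or day 12 replicate 2 or 3. IFI44L and GBP1 held in each such fit.
IFI44L (GRCh38.p14, chr1:78620268-78620447, plus strand): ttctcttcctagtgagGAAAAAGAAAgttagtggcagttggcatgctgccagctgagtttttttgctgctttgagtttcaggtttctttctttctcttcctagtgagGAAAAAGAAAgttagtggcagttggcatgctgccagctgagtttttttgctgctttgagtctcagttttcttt
IFI6 (GRCh38.p14, chr1:27672193-27672362, minus strand): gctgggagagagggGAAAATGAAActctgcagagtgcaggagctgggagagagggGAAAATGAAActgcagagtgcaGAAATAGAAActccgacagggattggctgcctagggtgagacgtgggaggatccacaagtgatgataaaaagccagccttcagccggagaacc
SAMD9 (GRCh38.p14, chr7:93117980-93118129, minus strand): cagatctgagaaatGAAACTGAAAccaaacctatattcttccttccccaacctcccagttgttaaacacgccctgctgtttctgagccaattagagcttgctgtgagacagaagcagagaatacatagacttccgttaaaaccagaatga

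**Figure D4:**
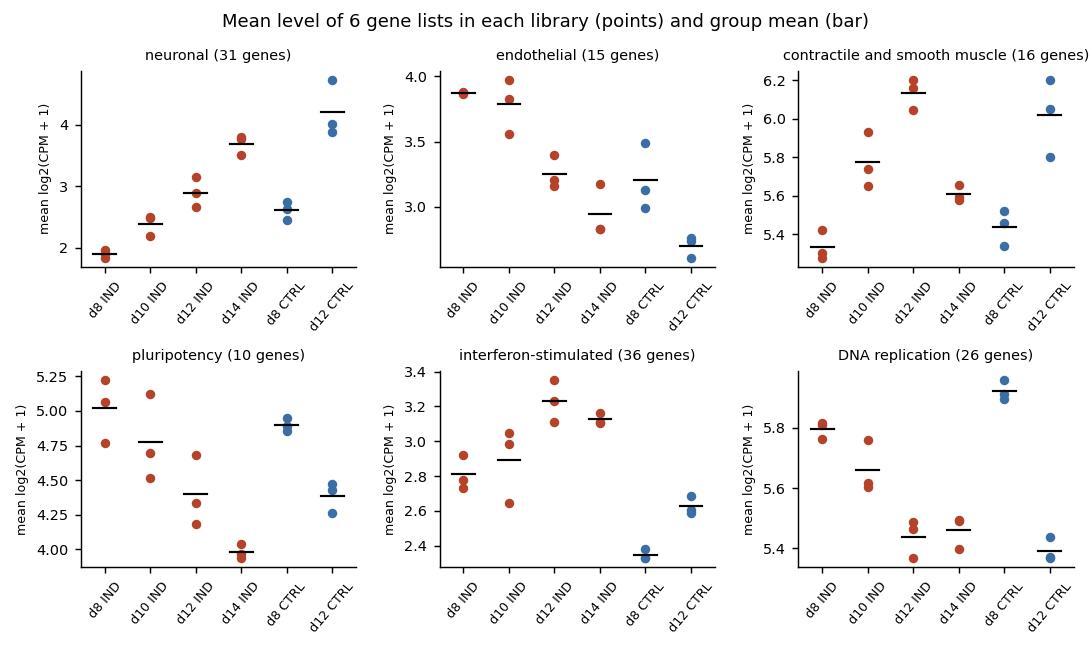
Mean log2(CPM + 1) over the tested members of 6 gene lists (vertical axes, which do not start at 0), 1 point a library, red for IND and blue for CTRL, with a bar at the group mean. In IND the neuronal libraries go from between 1.84 and 1.97 on day 8 to between 2.67 and 3.15 on day 12, and the endothelial libraries from between 3.86 and 3.88 to between 3.16 and 3.40.

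The largest rise among called protein-coding genes with a mean log2 CPM of at least 1 was in CFI, the protease complement factor I, at 0.205, 0.0506 and 0.061 CPM on day 8 and 12.7, 5.34 and 8.66 CPM on day 12 (log2 fold change 6.39 ± 0.52 SE, edgeR adjusted p = 0.000477). Of the 29 tested members of 30 listed on the complement and coagulation list, 6 rose and 2 fell (20.7% and 6.9%). Of all genes tested, 4.02% were called higher and 1.15% lower. The number higher on the list ranged from 3 without day 8 replicate 2 to 7 without day 12 replicate 1. C1S and C1R rose by 1.88 (edgeR adjusted p = 0.000896) and 1.03 (edgeR adjusted p = 0.0222). NR1H4, the bile acid receptor, had 0.539, 0.405 and 0.346 CPM on day 8 and 6.28, 8.49 and 4.21 CPM on day 12. The change in NR1H4 was 3.88 ± 0.35 on the log2 scale (SE; edgeR adjusted p = 0.000591). The secreted protein NELL1, the membrane protein TMEM151A and PRCD had log2 fold changes of 3.96, 3.77 and 3.51. CUBN, a scavenger receptor of absorptive epithelia, went from 4.47, 2.93 and 3.95 to 0.893, 0.475 and 0.742 CPM. The change in CUBN was -2.43 ± 0.32 on the log2 scale (SE; edgeR adjusted p = 0.00351). APOB, apolipoprotein B, had a log2 fold change of -2.07 (edgeR adjusted p = 0.0362). That of AKR1D1, an enzyme of bile acid synthesis, was -1.93 (edgeR adjusted p = 0.0208). SOST, ZPLD1, ATP10B, PLSCR5, PLA2G12B and GPR183 were also among the 12 largest falls under the same rule, between -2.03 and -2.41. By FPKM, which is per gene length, the most abundant protein-coding genes called included COL3A1, SPARC, TMSB4X, GPC3 and CKB among those that rose, and LIN28A, SST, SRSF5 and ERRFI1 among those that fell. TMSB4X, which binds actin monomers, was at 805, 823 and 696 CPM on day 8 and 2149, 1360.5 and 1550.3 CPM on day 12 (log2 fold change 1.12 ± 0.19 SE, edgeR adjusted p = 0.00992), and GPC3, a glypican of embryonic tissue, at 827, 850.0 and 895 CPM on day 8 and 1904, 1666 and 1648 CPM on day 12 (log2 fold change 1.02 ± 0.13 SE, edgeR adjusted p = 0.00351). Calls lost on leaving out 1 library were those of AKR1D1 and ERRFI1 without day 8 replicate 1 or 2, and C1R without day 8 replicate 1 or 2 or day 12 replicate 3 (adjusted p of at most 0.204 in these fits). Also lost were APOB without day 8 replicate 1 or 2 or day 12 replicate 1 or 3, and TMSB4X without day 8 replicate 2 or 3. Also lost were CKB without day 8 replicate 2 or 3 or day 12 replicate 1, and SRSF5 without day 8 replicate 1, 2 or 3 or day 12 replicate 2 or 3. CFI, C1S, NR1H4, NELL1, TMEM151A, PRCD, CUBN, ZPLD1, ATP10B, PLSCR5, PLA2G12B, GPR183 and GPC3 passed whichever library was left out.

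None of the 24 cholesterol synthesis genes, 28 genes of glycolysis and the hypoxia response or 13 genes of the mitochondrial genome passed the test with all libraries, with list medians of -0.01, 0.09 and 0.11. Without day 12 replicate 1, 2 genes of glycolysis and the hypoxia response were called higher and 1 lower, and without day 12 replicate 2, 1 mitochondrial gene was called higher. Of 25 genes of amino acid supply and the integrated stress response, 3 rose and 2 fell (12% and 8%, against 4.02% and 1.15% of all genes tested). The number higher ranged from 1 without day 8 replicate 1, 2 or 3 to 4 without day 12 replicate 1. DDIT4, an inhibitor of the kinase mTOR, went from 85.7, 91.6 and 72.7 to 177, 178 and 162 CPM. The change in DDIT4 was 1.05 ± 0.13 on the log2 scale (SE; edgeR adjusted p = 0.00253). SLC7A11, the cystine importer, went from 66.0, 68.2 and 51.6 to 19.5, 26.2 and 24.2 CPM. The change in SLC7A11 was -1.41 ± 0.17 on the log2 scale (SE; edgeR adjusted p = 0.00225). The calls of DDIT4 and SLC7A11 held with any 1 of the 6 libraries left out. The other calls of the list did not all hold: without day 8 replicate 1, 2 or 3 only 1 member was called higher and 1 lower.

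CTRL cells crossed the same 4 days without the compounds, and their libraries are not shared with the IND comparison. In CTRL, 4879 of 19777 genes (24.7%) differed between day 8 and day 12, 2753 higher (13.9%) and 2126 lower (10.7%). The spread between CTRL libraries was smaller, where chi-squared values over genes ran from 7.82 to 21.2 per gene against 10.5 to 123 in IND, so the numbers of calls do not compare the sizes of the steps. Of the 792 genes that rose in IND, 765 were tested in CTRL, and 619 of these (80.9%) were called higher there too and 3 called lower. Those 619 were 23.1% of the 2677 genes called higher in CTRL and tested in IND. Of the 227 that fell, 219 were tested, 147 (67.1%) were called lower and 4 higher, and the 147 were 6.96% of the 2113 called lower in CTRL. The neuronal list had 23 of 30 called higher in CTRL and a median of 2.13, and the endothelial list had 6 of 15 called lower and a median of -0.53. UPK3B, for example, rose in CTRL by 2.47 ± 0.14 (SE; edgeR adjusted p = 3e-06), from 5.77 ± 1.19 to 31.8 ± 2.78 CPM (SD, n = 3).

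The difference between the 2 steps was tested directly as an interaction over 12 libraries. It passed for 31 of 21058 genes (0.147%), 13 with a higher log2 step in IND (0.0617%) and 18 with a lower one (0.0855%). The smallest p was that of SST. It fell in IND, as given above, while in CTRL it rose from 7.59, 8.06 and 7.57 to 61.8, 40.3 and 49.8 CPM, and the IND step minus the CTRL step was -4.27 ± 0.28 (SE; edgeR adjusted p = 7.72e-06) on the log2 scale. All 3 IND libraries of day 12 lay below all of day 8, and the 3 CTRL libraries did the reverse. EDN3, endothelin 3, a ligand for neural crest cells, moved the other way: it went from 13.8, 10.4 and 10.6 to 45.9, 31.6 and 42.1 CPM in IND and from 13.6, 12.1 and 12.6 to 7.71, 8.93 and 8.80 CPM in CTRL, with a difference of 2.38 ± 0.22 (SE; edgeR adjusted p = 0.000328). Both passed the test under each of the 19 alternatives.

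**Figure D5:**
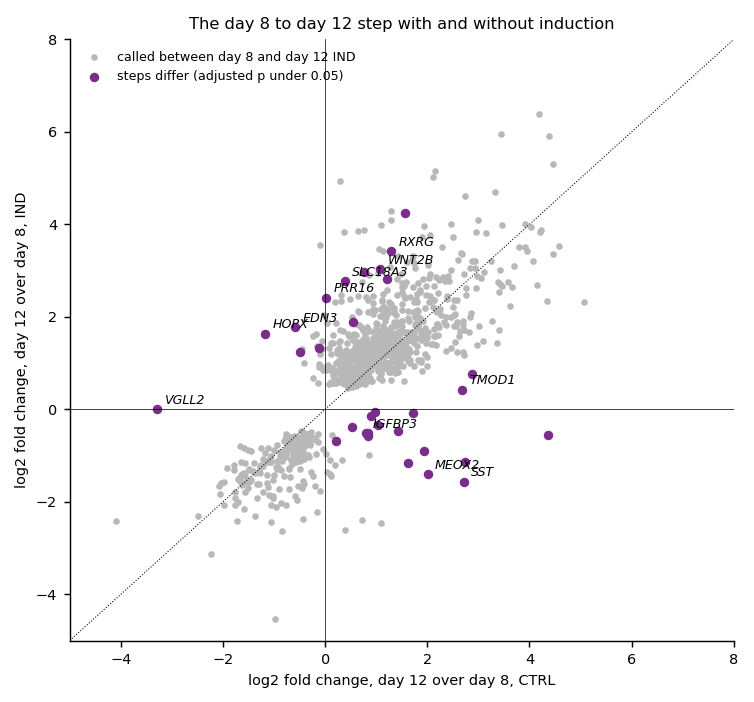
Log2 fold change from day 8 to day 12 in IND (vertical axis) against CTRL (horizontal axis), 1 point a gene: grey for genes called between day 8 and day 12 IND and tested in CTRL, purple for genes whose steps differed in the interaction test; the dotted line marks equal steps. Most grey points lie in the upper right and lower left, and SST (CTRL 2.71, IND -1.56) lies in the lower right.

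HOPX, an atypical homeodomain protein, rose in IND from 2.75, 3.49 and 3.34 to 12.7, 7.07 and 9.95 CPM and in CTRL went from 1.11, 1.27 and 1.68 to 0.414, 0.836 and 0.558 CPM (difference 2.81 ± 0.40 SE, edgeR adjusted p = 0.0135). PRR16 rose in IND from 0.565, 0.961 and 0.834 to 4.62, 3.07 and 4.99 CPM and was at 3.30 ± 0.123 and 3.35 ± 0.14 CPM (SD, n = 3) on days 8 and 12 of CTRL (difference 2.40 ± 0.33 SE, edgeR adjusted p = 0.0106). The day 8 IND libraries of PRR16 lay below those of CTRL, and the day 12 libraries overlapped. The same was seen for SLC18A3, the vesicular acetylcholine transporter, at 1.36, 2.61 and 1.79 and then 16.0, 9.55 and 13.7 CPM in IND and at 13.4 ± 3.64 and 17.4 ± 5.94 CPM (SD, n = 3) in CTRL (difference 2.39 ± 0.41 SE, edgeR adjusted p = 0.0403). For RXRG the CTRL step was 1.29 ± 0.13 (SE; edgeR adjusted p = 4.52e-05) and the difference 2.14 ± 0.29 (SE; edgeR adjusted p = 0.0106). WNT2B rose less in CTRL, by 1.08 ± 0.17 (SE; edgeR adjusted p = 0.00654), with a difference of 1.96 ± 0.33 (SE; edgeR adjusted p = 0.0338). CNTN6, a contactin of neuronal surfaces, differed by 2.20 ± 0.39 (SE; edgeR adjusted p = 0.0491). VGLL2, a cofactor of TEAD factors, was at 4.16, 2.86 and 1.93 and then 2.48, 3.93 and 2.53 CPM in IND and fell from 3.13, 2.79 and 3.61 to 0.452, 0.352 and 0.15 CPM in CTRL (difference 3.31 ± 0.50 SE, edgeR adjusted p = 0.0207).

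On the other side, MEOX2, a homeobox gene of mesenchyme, fell in IND from 4.60, 6.58 and 10.0 to 2.43, 2.46 and 3.14 CPM and rose in CTRL from 0.0887, 0.168 and 0.348 to 0.847, 0.88 and 0.666 CPM (difference -3.41 ± 0.53 SE, edgeR adjusted p = 0.0224). UNC5A, a netrin receptor, fell in IND, with a log2 fold change of -1.15 (edgeR adjusted p = 0.0389), and rose in CTRL by 1.63 ± 0.24 (SE; edgeR adjusted p = 0.000648) (difference -2.77 ± 0.34 SE, edgeR adjusted p = 0.00531). SLC7A14 and TMEM178B differed by -3.86 ± 0.58 (SE; edgeR adjusted p = 0.0196) and -2.83 ± 0.41 (SE; edgeR adjusted p = 0.0139), with rises in CTRL of 2.74 and 1.94 and IND steps of -1.13 (edgeR adjusted p = 0.0523) and -0.89 (edgeR adjusted p = 0.137). TMOD1, which caps actin filaments, was at 5.67, 5.69 and 5.84 and then 8.22, 7.04 and 7.86 CPM in IND, while CTRL went from 0.555, 0.457 and 0.588 to 3.46, 3.12 and 3.71 CPM (difference -2.25 ± 0.24 SE, edgeR adjusted p = 0.0016). IGFBP3, the most abundant of the named genes with different steps, was at 825 ± 129 and 574 ± 26.3 CPM in IND and at 287 ± 39.7 and 496 ± 14.9 CPM in CTRL on days 8 and 12 (SD, n = 3; difference -1.31 ± 0.18 SE, edgeR adjusted p = 0.0106). With 1 of the 12 libraries left out the number of genes with different steps lay between 7, without day 8 IND replicate 2, and 77, without day 8 IND replicate 3. Over the 19 alternatives the adjusted p was at most 0.0292 for UNC5A, 0.055 for PRR16, 0.0569 for HOPX and 0.48 for WNT2B.

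The day 10 and day 14 IND libraries show where these genes lay between and after the 2 days; the values are descriptive. On day 10 the mean of replicates 1 and 3 lay between the day 8 and day 12 means for 770 of the 792 genes that rose and for 216 of the 227 that fell. With the low-complexity replicate 2 included, which had 19254 genes with a count against 28799 and 28848, these numbers were 719 and 195. The genes were picked by their day 8 and day 12 values, so a day 10 mean between them was likely beforehand. The share over all genes tested was not computed. On day 14, 523 of the genes that rose (66.0%) were at or past their day 12 mean, 260 lay between the day 8 and day 12 means, and 9 were back at the day 8 mean or below. Of the genes that fell, 135 (59.5%) were at or below their day 12 mean and 92 lay between. WT1 continued from a day 12 mean of 41.4 CPM to 96.8 ± 7.68 CPM (SD, n = 3), and STMN2 from 19.2 to 62.0 ± 15.5 CPM. Some contractile genes turned back: TAGLN had a mean of 196 CPM on day 12 and 97.5 ± 3.65 CPM on day 14, MYOCD 4.11 and then 1.53 ± 0.494 CPM, and CNN1 92.5 and then 55.4 ± 4.55 CPM. FST likewise went from 78.8 to 52.7 ± 7.67 CPM and IGFBP7 from 81.3 to 27.4 ± 6.39 CPM. Among the genes that fell, KDR was back at 73.1 ± 22.6 CPM on day 14 against a day 8 mean of 82.5 CPM, while CDH5 continued down to 9.18 ± 2.56 CPM.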

How the data were processed

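Poly(A) RNA of 33 technical replicates was sequenced as non-directional libraries. Per the labels and the submitters' processing notes, reads were trimmed with fastp 0.23.2, mapped to GRCh38 with HISAT2 2.0.5 and counted per gene with featureCounts 1.5.0-p3. The authors deposited a table of raw counts and a table of FPKM, which are scaled by gene length and library size by the authors; the counts were used for all main tests and the FPKM for the ranking by abundance and for 1 alternative.

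Groups were taken from the sample labels. Genes were kept by filterByExpr, scaled by TMM and tested with the robust quasi-likelihood test of edgeR 4.0.16 (R 4.3.3), with Benjamini-Hochberg adjustment at 0.05 over all genes tested. The SE of a log2 fold change is its size divided by the square root of F. CPM are on 1 TMM scale over the 33 libraries. The difference of the IND and CTRL steps was the interaction term of 1 fit over the 12 libraries of days 8 and 12. Folds against groups at or near 0 used a floor of 3 counts per library, 0.0628 to 0.102 CPM. The library totals limit the precision, and this floor covers counting error only.

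Alternatives were DESeq2 1.42.0, RLE size factors, 2 other filters, the replicate number as a block, 1 fit over all libraries, limma-trend (limma 3.58.1) on log2(FPKM + 1), an added fold threshold, and each library left out. On simulated counts with 200 changed genes, edgeR recovered 93 of 100 changes of 2 and 64 of 100 changes of 1 on the log2 scale for the IND comparison, with 9 false calls of 166 (19268 genes). The changed genes all averaged at least 50 counts, so recovery at lower counts was not measured. No outlying library was simulated. Named genes were the markers the study names, the 12 protein-coding genes with the largest change in each direction, up to 6 members of each of 34 gene lists, the 6 largest differences of steps in each direction and the 5 most abundant genes called in each direction, where a rule of size held only for genes averaging 1 or more in log2 CPM. RXRG, WNT2B and IGFBP3 were added to the differences of steps after their values were seen. The groups compared, the lists and the rule were chosen with earlier results of these data known. Some genes that the rule names are not reported here. Promoters are RefSeq windows (GRCh38.p14), matched by symbol for 13123 of 19657 tested symbols.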

Additional observations from a re-analysis of the deposited data

Results flagged for a closer look

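In 15 named genes the step from day 8 to day 12 differed between IND and CTRL in the interaction test of edgeR over 12 libraries, and these are singled out here because the same 4 days gave different changes with and without the induction. The values are the IND step minus the CTRL step in log2 units, and the cause was not tested in any of them.

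The IND step was the higher in VGLL2 (3.31), HOPX (2.81), PRR16 (2.40), SLC18A3 (2.39), EDN3 (2.38), CNTN6 (2.20), RXRG (2.14) and WNT2B (1.96). For PRR16, SLC18A3, CNTN6, RXRG and WNT2B the day 8 level was lower in IND than in CTRL. In CNTN6, for example, it was 1.27 against 12.3 CPM, and in WNT2B 4.66 against 54.6 CPM. For HOPX the day 8 level was higher in IND. In VGLL2 the IND libraries of both days overlapped, and the CTRL step was -3.29. The IND step was the lower in SST (-4.27), SLC7A14 (-3.86), MEOX2 (-3.41), TMEM178B (-2.83), UNC5A (-2.77), TMOD1 (-2.25) and IGFBP3 (-1.31). Of these, SST, MEOX2, TMOD1 and IGFBP3 had a higher day 8 level in IND than in CTRL, by the values given above. SST, MEOX2 and UNC5A fell in IND and rose in CTRL, and EDN3 and HOPX rose in IND and fell in CTRL. The test passed under all 19 alternatives for SST, EDN3 and UNC5A, and under 18 for TMOD1, 16 for HOPX, 18 for PRR16, 17 for RXRG, 18 for IGFBP3, 15 for SLC7A14, 15 for TMEM178B, 13 for VGLL2, 14 for MEOX2, 6 for SLC18A3, 7 for CNTN6 and 8 for WNT2B.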

How the results depend on the processing

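Of the 19678 genes, 1019 differed between day 8 and day 12 IND. The number was 1745 by DESeq2, 2262 with no filter on low counts, 1902 in 1 fit over all 33 libraries and between 357 and 1547 with 1 library left out, the highest without day 12 replicate 1. RLE size factors (996), a mean of at least 50 counts (855), limma-trend on log2(FPKM + 1) (684) and an added change of at least 1 on the log2 scale (710) moved it by less than 1.5 times. With the replicate number as a block it was 639 (522 higher, 117 lower), but the numbers did not pair the samples: the correlations of same-numbered deviations were -0.19, 0.11 and -1e-04 for replicates 1, 2 and 3. In CTRL, 4879 genes were called, 1693 in the fit over all 33 libraries, 5248 with the replicate block and between 3362 and 4485 with 1 library left out. The difference of the steps passed for 31 genes, for 263 by DESeq2, 549 with no filter, 29 with the replicate block and between 7 and 77 with 1 library left out. No gene called in the main comparison changed direction in any of these fits, which was nearly fixed beforehand, since the day 8 and day 12 values of these genes did not overlap. Directions turned only in genes that had not passed. With 1 library left out, their log2 fold changes ran for KRT19 from -0.36 to 0.0506, NR0B1 from -0.27 to 0.57, OSR1 from -0.36 to 0.0849, SOX9 from -0.0897 to 0.27, TAC1 from -0.38 to 0.17, TSPAN8 from -0.37 to 1.08 and VGLL2 from -0.25 to 0.32. The IND step of VGLL2, 0.00659, was -0.00554 by DESeq2, -0.00491 with RLE size factors and -3.797e-05 with no filter. The count of genes between the day 8 and day 12 means on day 10 was 914 with all 3 libraries and 986 without replicate 2. Among the genes simulated with a change of 1 on the log2 scale, all averaging at least 50 counts, the IND test recovered 64 of 100. Smaller changes were thus often not detectable with 3 libraries a group, and recovery at lower counts was not measured.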
